A study of Mus musculus with 24 samples.

Results

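The 6 genes described here were taken as signals to the pigment cells of the hair follicle, or as modifiers of such a signal. Their RNA was measured in sorted cells of the dermal papilla (DP), the mesenchyme that the follicle encloses at its lower end. Whether DP cells are the source of each signal was not tested. The 6 genes were chosen by name as Corin, Asip, Edn1, Edn3, Kitl and Nrg1 among the 25755 genes of the files. The files list 5 of them under these symbols, and Asip under its older symbol a, matched by its Ensembl identifier and its RefSeq synonym. RNA was sequenced from DP cells of 24 mice, with 3 mice per genotype, control or dM1/2, at P20 (first telogen, the resting phase), P24 (early anagen, the growth phase), P28 (mid anagen) or P60 (second telogen). The question of the design was what the loss of the histone deacetylases Hdac1 and Hdac2 from the DP changes along the hair cycle. Every mouse, controls included, carried the Cor-cre allele in the heterozygous state, whose Cre is expressed under the control of Corin, so that 1 of the 6 genes also drives the deletion. The dM1/2 mice were homozygous for floxed Hdac1 and floxed Hdac2. Control genotypes ranged from heterozygous for a single floxed gene to homozygous for either gene with the other heterozygous, and the labels do not say which control had which. The cells carried a YFP reporter (ROSA26 EYFP) and were sorted by FACS in repeated rounds from the back skin of single mice. The Cor-cre line was FVB and the floxed and reporter lines were C57BL/6J, a strain known for the nonagouti allele of Asip, and the Asip alleles of single mice are not given in the sources used here.

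In growing follicles, melanocytes make black eumelanin or yellow pheomelanin. Agouti, the product of Asip, is secreted by the DP, blocks the melanocortin 1 receptor on melanocytes and turns synthesis to pheomelanin, while Corin, a serine protease on the surface of DP cells, counteracts agouti. Endothelins act on melanocytes through Ednrb, Kit ligand acts on the receptor Kit and is required for melanocyte survival and migration, and neuregulins act on ErbB receptors.

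Positions are those of GRCm38 with the GENCODE annotation (release M21). Corin (ENSMUSG00000005220) lies on the minus strand of chromosome 5 from 72300025 to 72504473, and Nrg1 on the minus strand of chromosome 8 from 31814551 to 32884029. On plus strands, Asip (ENSMUSG00000027596) lies on chromosome 2 from 154791402 to 155051012, Edn3 on chromosome 2 from 174760619 to 174784042, Edn1 on chromosome 13 from 42301476 to 42307990 and Kitl on chromosome 10 from 100015630 to 100100416. The reads counted here are summed over the exons of all transcripts of a gene, which cover from 1.17 kb for Asip to 10.35 kb for Nrg1. Asip shares 147 exon bases with Raly on the same strand, and Corin, Edn1 and Nrg1 share 147, 35 and 482 exon bases with genes on the opposite strand (Gm20647, Gm47118 and Gm26578). The strand setting of the counting is not given in the sources used here, so reads in these shared stretches cannot be assigned with certainty.

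The promoters of the genes whose levels moved together are shown to give the sequence context of the changes below, beside that of Edn1, which did not move with them. The RefSeq promoter table used here holds 5 of the 6 genes, and not Nrg1. The windows hold the 250 bases before the RefSeq start site (GRCm38.p6), and for Asip only the 152 bases before its first annotated exon there. The gene Asip has 6 annotated transcripts and begins at 154791402, so its window at 155013320 is that of a single start. Corin and Edn3 have 7 and 4 annotated transcripts. Which starts these cells used was not tested. Capitals mark a LEF/TCF match, the motif of the transcription factors of Wnt signaling.
Corin, chr5:72504541-72504790, minus strand: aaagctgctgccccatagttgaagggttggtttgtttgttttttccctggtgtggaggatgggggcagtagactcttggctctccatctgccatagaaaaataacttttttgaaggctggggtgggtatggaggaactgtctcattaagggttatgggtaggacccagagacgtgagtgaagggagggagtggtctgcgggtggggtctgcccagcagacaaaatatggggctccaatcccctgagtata
Asip, chr2:155013320-155013471, plus strand: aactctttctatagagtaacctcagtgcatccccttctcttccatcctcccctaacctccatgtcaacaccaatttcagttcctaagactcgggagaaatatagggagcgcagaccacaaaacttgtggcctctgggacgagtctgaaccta
Edn3, chr2:174760369-174760618, plus strand: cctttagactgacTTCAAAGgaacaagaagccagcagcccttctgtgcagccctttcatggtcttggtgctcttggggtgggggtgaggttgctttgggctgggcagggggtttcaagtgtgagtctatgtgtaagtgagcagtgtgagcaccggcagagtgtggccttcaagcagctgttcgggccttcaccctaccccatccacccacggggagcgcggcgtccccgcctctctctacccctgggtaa
Edn1, chr13:42301226-42301475, plus strand: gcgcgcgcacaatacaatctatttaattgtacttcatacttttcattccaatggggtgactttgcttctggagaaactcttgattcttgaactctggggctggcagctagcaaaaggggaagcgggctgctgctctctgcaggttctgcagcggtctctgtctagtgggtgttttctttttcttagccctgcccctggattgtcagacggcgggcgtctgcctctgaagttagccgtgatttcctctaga

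Both strands of the 250-base windows were searched for 6 motifs, each given with the share of the 32851 promoters in the table that hold it. A TATA box (TATAAA) was in 12.4% and a GC box (GGGCGG) in 32.7%. The 2 forms of a LEF/TCF site were CTTTGAA, in 4.46%, and CTTTGAT, in 3.21%. An E-box (CACGTG) was in 6.02%. An AP-1 site (TGANTCA) was in 6.75%. The window of Edn3 held a LEF/TCF match, TTCAAAG, that begins 237 bases before the start, and those of Corin, Asip and Edn1 held none of the 6 motifs. The window of Kitl, which runs into an annotated exon and is therefore not printed, held a TATA box 25 bases and GC boxes 41, 45 and 143 bases before the start, the first pair overlapping each other. It also had 69.2% G and C and 23 CpG dinucleotides, compared with at most 59.2% and between 2 and 9 CpG in the other 4 windows and medians of 52.4% and 6 over all promoters.

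Values are normalized reads, that is reads per gene over the library's DESeq2 size factor. Libraries held between 8171944 and 13369732 reads on genes in telogen (P20 and P60) and between 35469841 and 49331751 in anagen (P24 and P28). Xist was at most 3.91 normalized reads and Ddx3y at least 968.9 in every anagen library, whereas Xist was at least 8113 and Ddx3y 0 in every telogen library, so that phase, depth and sex of the mice cannot be told apart. Hdac1 had between 668 and 675 normalized reads in P24 controls and between 116 and 209 in dM1/2 and passed at this age alone (log2 fold change -2.01, limma adjusted p = 0.00167). At P20 it had between 375 and 511 in controls and between 216 and 370 in dM1/2 (-0.72, adjusted p = 0.122), and at P60 between 360 and 506 and between 318 and 371, which overlapped (-0.25, limma adjusted p = 0.986). At P28 it had 214, 529 and 105 in controls and 190, 149 and 126 in dM1/2 (-0.58, limma adjusted p = 0.454), so that the library labelled as the third P28 control lay under the 3 mutants. Hdac2 did not pass at any age, with log2 fold changes between -0.01 and 0.27 (limma adjusted p from 0.117 to 0.991). These are RNA levels summed over the whole gene. By immunostaining in the first anagen, the paper found few mutant DP cells with Hdac1 or Hdac2 protein. All 17 DP markers on the list used here, among them Sox2, Hey2 and Alpl, were detected in every library. P28 control 2 and P28 control 3 stood apart from each other, with summed levels of 6 markers of other dermal fibroblasts of 137914 and 12361 normalized reads, against between 33052 and 41395 in P28 dM1/2, so values at P28 are also given without either. As these are bulk samples, fewer DP cells in the sorted cells and less RNA per DP cell cannot be told apart.

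At P24, 4 of the 6 genes were lower in dM1/2 than in control DP cells, namely Corin, Asip, Edn3 and Nrg1. All of the 3 mutant libraries were below all of the 3 controls for each of these genes. Among the 14028 genes tested at P24, 26.6% passed the threshold in either direction and 11.8% were lower, and groups did not overlap for 44.8%. Edn1 and Kitl did not pass. The threshold was an adjusted p-value under 0.05 with limma on log2(normalized reads + 1), two-sided, with Benjamini-Hochberg adjustment over all genes tested, and each fold change on the log2 scale is dM1/2 minus control or later minus earlier age. These 4 calls held under all 14 alternatives for each gene, which include every library left out in turn.

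Asip, the agouti gene, changed most of the 6 genes at P24. The P24 controls had 7685, 15607 and 9680 normalized reads of Asip, and the dM1/2 libraries had 777, 529 and 396. The lowest control was thus far above the highest mutant, and the means of 10991 ± 4120 and 567 ± 194 (SD, n = 3 each) differed 19.4-fold. The log2 fold change of Asip was -4.26 (standard error, SE, 0.32, limma adjusted p = 0.000681), the lowest of the 6 genes at this age. Raly, which shares exon bases with Asip, had a log2 fold change of 0.02 (limma adjusted p = 0.939).

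At P28, Asip could not be separated between the genotypes. The controls had 2036, 49.95 and 474 normalized reads and dM1/2 had 63.5, 235 and 166, so that control 2 was below every mutant library and the controls spanned a 40.8-fold range. The log2 fold change of Asip was -1.43 with a 95% interval from -4.41 to 1.56 (limma adjusted p = 0.422). Without P28 control 2 it was -2.85 and was called (limma adjusted p = 0.0247), whereas it was -1.24 without P28 control 3 and -0.19 without P28 control 1. In telogen, Asip was low in all 12 libraries. The P20 values were 190.2, 119 and 264 in controls and 91.0, 106 and 190.5 in dM1/2, and those at P60 were 73.5, 143 and 164 in controls and 17.7, 62.9 and 96.5 in dM1/2. The groups overlapped at both ages, with log2 fold changes of -0.56 (adjusted p = 0.386) and -1.31 (limma adjusted p = 0.986).

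Corin, the protease, was lower in dM1/2 at both anagen ages. At P24 the controls had 12267, 17134 and 15411 normalized reads and dM1/2 had 4754, 3537 and 3138, a 3.92-fold difference of the means and a log2 fold change of -1.98 (SE 0.20, limma adjusted p = 0.00139). At P28 the controls had 41112, 30326 and 75255 and dM1/2 had 4581, 4009 and 5005, a 10.8-fold difference and a log2 fold change of -3.33 (SE 0.34, limma adjusted p = 0.000836). No library of dM1/2 reached any control at either age, and without P28 control 2 or P28 control 3 the log2 fold change of Corin was -3.62 or -2.97 and still passed. The difference between the effects at P28 and P24 was -1.35 (95% interval from -2.27 to -0.44) and missed the threshold (limma adjusted p = 0.19), which 0.707% of all genes passed.

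In telogen the groups of Corin overlapped. The P20 controls had 761, 338 and 482 normalized reads and dM1/2 had 1203, 644 and 716, a log2 fold change of 0.72 that missed the threshold (limma adjusted p = 0.233) except without P20 control 1 among the libraries left out (1.02, adjusted p = 0.0449). At P60 the controls had 250, 431 and 609 and dM1/2 had 151, 133 and 299, a log2 fold change of -1.14 (limma adjusted p = 0.986). None of the 6 genes passed at P20 or P60. At P20, 0.433% of 13845 genes passed. At P60, 0% of 14042 genes passed, while 525 had an unadjusted p under 0.05. Of the alternatives, edgeR called 0 genes, limma 1 with a pseudocount of 10, 6 with the replicate block, 19 in a single fit over 24 libraries and at most 2 with a library left out, and DESeq2 26, none of the 6 among them.

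**Figure D1:**
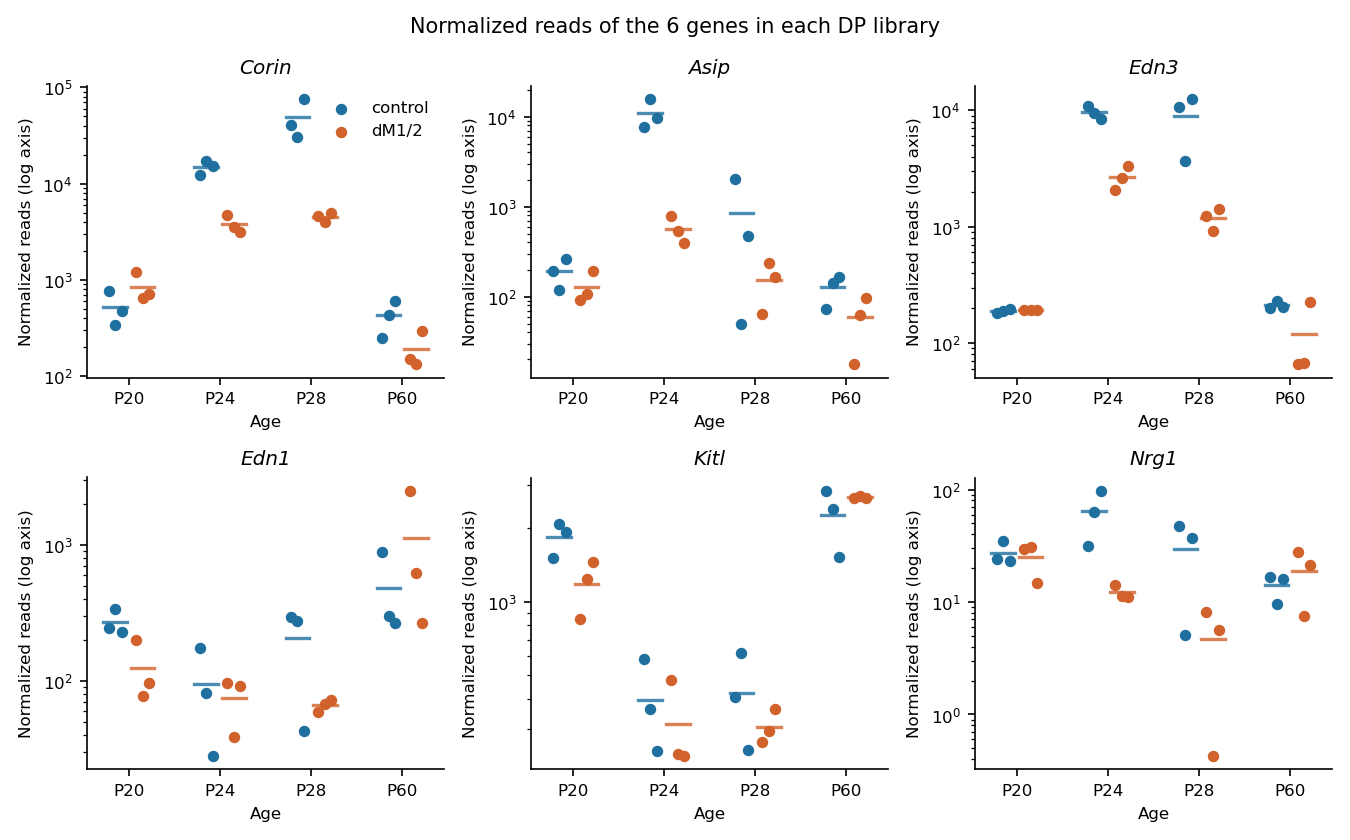
Normalized reads (log axis) of the 6 genes in each of 24 DP libraries against age, with control libraries in blue, dM1/2 libraries in orange and a short line at each mean of 3 libraries. For Corin, Edn3, Asip and Nrg1 the mutant points lie below all control points at P24, while for Kitl both genotypes are high in telogen and low in anagen.

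Edn3, the ligand of Ednrb that follicle melanocytes respond to, was also lower in dM1/2 at both anagen ages. At P24 the controls had 10897, 9565 and 8444 normalized reads and dM1/2 had 2054, 2597 and 3287, a 3.64-fold difference and a log2 fold change of -1.88 (SE 0.19, limma adjusted p = 0.00143). At P28 the controls had 10727, 3658 and 12431 and dM1/2 had 1231, 912 and 1406, a 7.56-fold difference and a log2 fold change of -2.76 (SE 0.46, limma adjusted p = 0.00461). Although P28 control 2 was low, it remained above every mutant library, and without P28 control 2 or P28 control 3 the log2 fold change was -3.31 or -2.43. At P20 the 6 libraries were within a narrow span, with 179, 189 and 198 in controls and 193.3, 192.5 and 192.3 in dM1/2, and the 95% interval of the log2 fold change ran from -0.32 to 0.38 around 0.03 (limma adjusted p = 0.932). At P60 the controls had 202, 229 and 205 and dM1/2 had 65.6, 67.9 and 224, so that 2 mutants were low and the third was within the controls (log2 fold change -1.07, adjusted p = 0.986, limma).

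At P28, Corin and Edn3 were the 2 of 6 genes called, both lower, where 35.5% of 14126 genes passed in either direction, 15.6% were lower, and groups did not overlap for 51.3%. The members' share in either direction was therefore close to that of all genes. Summed DP markers moved in the same direction at P24. They were between 350551 and 422643 normalized reads in P24 controls and between 195872 and 241187 in dM1/2, and 9 of 17 were called lower and 1 higher. At P28 the sums overlapped (between 150384 and 406856 against between 151781 and 170700), with 6 called lower and 3 higher. The list includes Fgf7, Fgf10 and Rspo3, whose RNA the paper reports as reduced in the mutant DP in anagen by in situ hybridization. The sums are therefore not a measure of the share of DP cells alone. The part of the shift in DP markers in the values of Corin, Asip and Edn3 was not tested.

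Edn1, an endothelin known from endothelial cells and keratinocytes, was not called for genotype at any age. At P20 the controls had 246, 338 and 229 normalized reads and dM1/2 had 200, 77.5 and 96.2. The groups did not overlap, which held for 25.4% of all genes at this age, but the log2 fold change of -1.22 did not pass (95% interval from -1.96 to -0.48, adjusted p = 0.102, limma). At P24 the controls had 174, 82.3 and 28.2 and dM1/2 had 96.3, 38.5 and 92.0, a log2 fold change of -0.08 whose 95% interval ran from -1.60 to 1.43 and whose sign changed without P24 control 1 (0.52) or P24 dM1/2 2 (0.34). At P28 the controls had 297, 279 and 43.2 and dM1/2 had 58.8, 68.1 and 73.1, a log2 fold change of -1.20 (limma adjusted p = 0.234). The low value was that of P28 control 3, without which it was -2.10 and passed (limma adjusted p = 0.000326), whereas it was -0.77 without P28 control 2.

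At P60, Edn1 was the most variable of the 6 genes. The controls had 890, 303 and 270 normalized reads and dM1/2 had 2514, 629 and 266, from the highest value of Edn1 in any library to a value below all controls, and the log2 fold change was 0.84 with a 95% interval from -0.96 to 2.64 (limma adjusted p = 0.986). Without P60 dM1/2 1 it was -0.03. The highest library, P60 dM1/2 1, also had the highest sum of other-fibroblast markers (565419 against between 288932 and 343542 in the other P60 libraries) and of endothelial markers (6410 against between 1480 and 3329). Of the latter, Tek held 5112, while Pecam1 and Cdh5 were at 197 and 207 there and at most 138 and 133 in the other P60 libraries. The same library was highest at P60 in the summed markers of melanocytes (2961 against at most 1597), immune cells (1088 against at most 461) and Schwann cells (1123 against at most 930), and lowest in those of the dermal sheath (5286 against at least 11548). Its sum of keratinocyte markers was 629, within the other P60 libraries (between 441 and 937). The same held for its sum of DP markers, at 57555 (between 44336 and 61878). Of the melanocyte sum in this library, Mitf held 2658. Tyr was lowest there, at 27.8 against at least 48.3 in the other P60 libraries, while Mlana and Sox10 were highest, at 58.1 and 7.57. The part of other cells in the Edn1 value of P60 dM1/2 1 was not tested.

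Kitl, the ligand of Kit, did not pass the test of genotype at any age. At P20 the controls had 1508, 2089 and 1939 normalized reads and dM1/2 had 850, 1239 and 1457, all lower than every control, with a log2 fold change of -0.66 that missed the threshold (95% interval from -1.12 to -0.21, adjusted p = 0.127, limma). Among the libraries left out, it passed without P20 control 1 (-0.80, adjusted p = 0.0424). At this age the markers of other dermal fibroblasts also summed to less in dM1/2 (between 91199 and 112647 normalized reads) than in controls (between 131606 and 176103), and the DP markers to more (between 69326 and 84204 against between 56707 and 61619), and their part in the values of Kitl and Edn1 was not tested. At P24 the controls had 581, 363 and 245 and dM1/2 had 478, 238 and 234, and at P28 they had 406, 616 and 248 and 266, 294 and 363, so that the groups overlapped at both ages. The log2 fold changes of Kitl were -0.32 at P24 (95% interval from -1.20 to 0.56, adjusted p = 0.58, and 0.003 without P24 control 1) and -0.37 at P28 (from -1.15 to 0.40, adjusted p = 0.416, limma). Without P28 control 3 the latter was -0.71 and passed (adjusted p = 0.0375), and without P28 control 2 it was -0.06. At P60 the controls had 2850, 2400 and 1524 and dM1/2 had 2651, 2713 and 2662, within the range of the controls (log2 fold change 0.29, adjusted p = 0.986, limma).

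Nrg1, a ligand of ErbB receptors, was the least abundant of the 6 genes. At P24 the controls had 31.3, 62.8 and 97.7 normalized reads (81, 125 and 246 reads) and dM1/2 had 14.2, 11.4 and 11.2 (39, 30 and 33 reads), with a log2 fold change of -2.16 (SE 0.44, limma adjusted p = 0.0115). At P28 the controls had 47.8, 5.12 and 36.8 (110, 8 and 97 reads) and dM1/2 had 8.10, 0.429 and 5.62 (19, 1 and 14 reads). The overlap came from P28 control 2, and the 1 read of P28 dM1/2 2 was under the limit of detection of 3 reads. The log2 fold change of Nrg1 there was -2.35 (95% interval from -4.79 to 0.10, adjusted p = 0.121, limma), and it was -3.28 and passed without P28 control 2 (adjusted p = 0.0268), whereas it was -1.97 without P28 control 3 and -1.53 without P28 dM1/2 2, the library with the lowest value. It also passed with the replicate block (adjusted p = 0.0306), in a single fit over 24 libraries (adjusted p = 0.0134) and with DESeq2 (-2.67, adjusted p = 0.0297). In telogen Nrg1 had between 3 and 14 reads per library, where the limit of detection of 3 reads corresponds to between 5.55 and 8.60 normalized reads at P20 and between 6.30 and 7.57 at P60, a limit for counting error only. The log2 fold changes of -0.16 at P20 (adjusted p = 0.862) and 0.25 at P60 (limma adjusted p = 0.997) both turned sign when 1 library was left out, at P20 without control 2 (0.02) or dM1/2 3 (0.16) and at P60 without dM1/2 1 (-0.10).

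**Figure D2:**
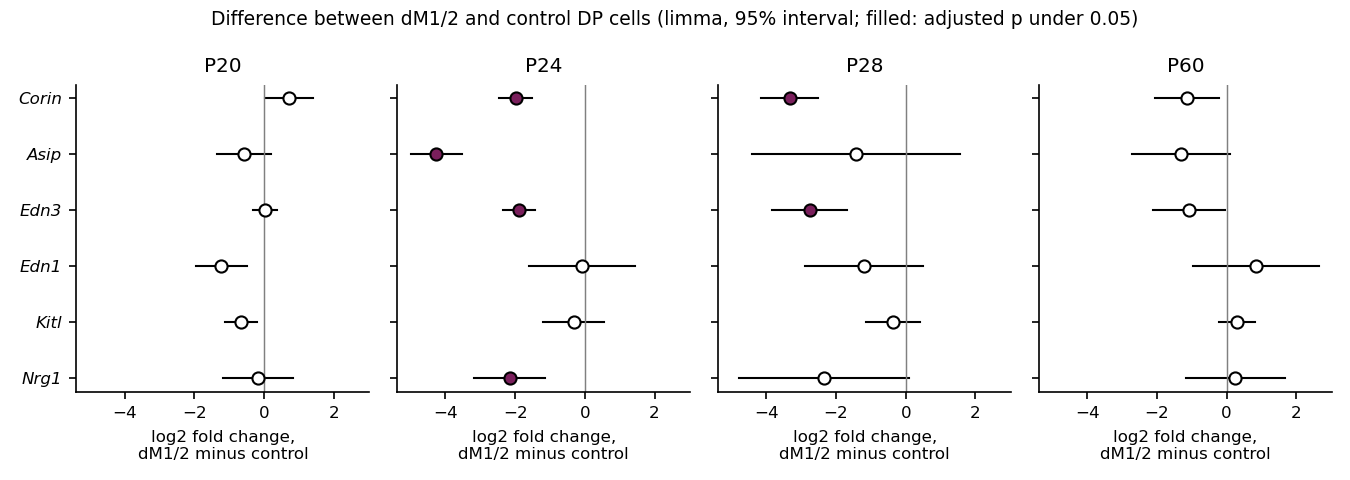
Log2 fold change (x axis) of each of the 6 genes between dM1/2 and control DP cells at each age, with the 95% interval of limma as a bar and filled circles for an adjusted p under 0.05. Corin and Edn3 are filled at P24 and P28, Asip and Nrg1 at P24 only, and none at P20 or P60.

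Whether the effect of the genotype differed between anagen and telogen was tested over all 24 libraries as the mean effect at P24 and P28 minus the mean effect at P20 and P60. It passed for 3 of the 6 genes, where 30.2% of 14243 genes passed in either direction and 14.1% were lower. The difference was -2.44 for Corin (SE 0.37, adjusted p = 0.000112), -1.80 for Edn3 (SE 0.39, adjusted p = 0.00183) and -2.30 for Nrg1 (SE 0.72, limma adjusted p = 0.0208), each more negative in anagen. Asip had a difference of -1.91 that did not pass (95% interval from -3.73 to -0.09, adjusted p = 0.106, limma), and it was -2.62 and passed without P28 control 2 (adjusted p = 0.00375). It also passed with edgeR (-2.52 with TMM and -2.55 with DESeq2 size factors, adjusted p = 0.0257 and 0.0245) and with DESeq2 (-2.54, adjusted p = 0.0091). With a pseudocount of 10 the difference of Nrg1 was -1.49 and still passed with limma. The differences of Edn1 and Kitl were -0.45 (adjusted p = 0.711) and -0.16 (limma adjusted p = 0.769).

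Between telogen and anagen, the 6 genes took opposite courses in the controls. Depth and sex of the mice changed with phase, and so did the marker sums in controls. DP markers summed to between 56707 and 61619 normalized reads at P20, 350551 and 422643 at P24, and 50857 and 59751 at P60. Markers of other dermal fibroblasts summed to between 131606 and 176103, 17370 and 77055, and 308879 and 343542. Their part in the changes below was not tested. From P20 to P24, Asip rose 57.5-fold in mean normalized reads, Edn3 51.0-fold and Corin 28.4-fold, with log2 changes of 5.85, 5.66 and 4.89 (adjusted p = 4.22e-05, 2.12e-06 and 4.22e-05, limma). In the same step Kitl fell 4.66-fold and Edn1 2.86-fold, with log2 changes of -2.29 (adjusted p = 0.00127) and -1.83 (limma adjusted p = 0.043), while Nrg1 had a log2 change of 1.08 (adjusted p = 0.104) and passed without P24 control 1 (1.51, adjusted p = 0.0276). Thus 5 of 6 genes passed, where 33.9% of all genes tested did. The call of Edn1 was lost without P20 control 1, 2 or 3 or P24 control 2 (log2 change from -1.94 to -1.67, adjusted p from 0.0823 to 0.12), and also with no filter, with edgeR under both scalings and in the single fit (adjusted p from 0.0603 to 0.0786), so that 6 of 14 alternatives called it. Its log2 change was -2.44 without P24 control 1 and -1.15 without P24 control 3.

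From P24 to P28 in controls none of the 6 genes passed, where 1.46% of all genes did with limma. Corin had 3.27-fold more and Asip 12.9-fold fewer mean normalized reads at P28, with groups that did not overlap, as for 26.6% of genes, and log2 changes of 1.62 (adjusted p = 0.0888) and -4.84 (limma adjusted p = 0.108). DESeq2 called both, and so did a fit over all 24 libraries with limma. The log2 change of Asip was -6.08 without P28 control 1 and -3.42 without P28 control 2. From P28 to P60, Corin fell 114-fold and Edn3 42.2-fold and Kitl rose 5.33-fold, the 3 of 6 genes that passed, where 21.4% of all genes did. The log2 changes were -6.81 (adjusted p = 0.000873), -5.21 (adjusted p = 0.00194) and 2.46 (limma adjusted p = 0.0101), the last of which was 2.39 without P60 control 2 and did not pass (adjusted p = 0.0542). Without P28 control 2, Asip and Nrg1 passed as well in this step (-3.03 and -1.54, adjusted p = 0.019 and 0.0417, limma), against -1.60 and -0.60 with all libraries (adjusted p = 0.358 and 0.603). Between the 2 telogens, P20 and P60, none of the 6 genes passed in controls (12.6% of all genes), with log2 changes between -0.92 for Nrg1 and 0.64 for Edn1.

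In dM1/2, Edn3, Corin and Asip also rose and Kitl fell from telogen to anagen. The DP markers of dM1/2 summed to between 69326 and 84204 normalized reads at P20 and between 195872 and 241187 at P24. Markers of other dermal fibroblasts summed to between 91199 and 112647 and between 20858 and 31862. Their part in these changes was not tested. From P20 to P24, Edn3 rose 13.7-fold, Corin 4.46-fold and Asip 4.39-fold, with log2 changes of 3.75, 2.19 and 2.15 (adjusted p = 1.31e-06, 9.65e-05 and 0.00047, limma), and Kitl fell 3.73-fold (log2 change -1.95, adjusted p = 0.000543), so that 4 of 6 passed against 46.4% of all genes. From P24 to P28 the 1 gene called was Edn3 (2.67% of all genes), which fell by 1.16 on the log2 scale (limma adjusted p = 0.0264). That call was lost without P24 dM1/2 2, P28 dM1/2 2 or P28 dM1/2 3 (adjusted p from 0.0501 to 0.115). Asip had a log2 change of -2.004 (adjusted p = 0.0539) and passed without P28 dM1/2 1 (-1.46, adjusted p = 0.0439, limma). Nrg1 was below the filter in that step and was not tested. From P28 to P60, Corin and Edn3 fell (log2 changes -4.62 and -3.53, adjusted p = 6.66e-05 and 0.000905) and Edn1 and Kitl rose (3.48 and 3.13, adjusted p = 0.00558 and 3.48e-05, limma), 4 of 6 genes against 46.3% of all genes. The log2 change of Edn1 was 2.60 without P60 dM1/2 1 and 4.22 without P60 dM1/2 3, and all 14 alternatives called it.

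Between P20 and P60 in dM1/2, 2 of the 6 genes passed, against 6.32% of all genes. Corin was 4.39-fold lower at P60 (log2 change -2.17, adjusted p = 0.0165) and Kitl 2.26-fold higher (1.21, adjusted p = 0.0171, limma). Whether these changes differ from those of controls was not tested. Corin was no longer called without P20 dM1/2 1, 2 or 3 or P60 dM1/2 2 (log2 change from -2.34 to -1.89, adjusted p from 0.0556 to 0.0729), nor Kitl without P20 dM1/2 2 or P60 dM1/2 2 (1.26 and 1.20, adjusted p = 0.0722 and 0.0733, limma). Edn1 had a log2 change of 2.70 that did not pass (adjusted p = 0.0722), and it passed without P60 dM1/2 1 (1.83, adjusted p = 0.0312) or P60 dM1/2 3 (3.45, adjusted p = 0.0188). It also passed with DESeq2 (3.17, adjusted p = 0.0116), the replicate block (adjusted p = 0.0181) and the single fit (adjusted p = 0.0245). Edn3 had a log2 change of -0.94 (adjusted p = 0.242) and likewise passed without P60 dM1/2 3 (-1.52, adjusted p = 0.013, limma).

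To compare the 6 genes with each other, normalized reads were divided by exon length. Per kb, P24 controls had 9402 ± 3525 normalized reads of Asip, 2766 ± 457 of Corin and 2343 ± 299 of Edn3 (SD, n = 3 each), followed by Kitl at 67.0, Edn1 at 44.4 and Nrg1 at 6.17. Asip lay above Corin in every library, while the ranges of Corin and Edn3 overlapped, as did those of Kitl and Edn1. In P24 dM1/2, Corin led with 706 ± 156 per kb, with Edn3 at 643 ± 150 and Asip at 485 ± 166, and the ranges of these 3 neighbours overlapped. In P28 controls Corin led with 9055 ± 4343 per kb and Edn3 followed at 2173 ± 1131, ranges that did not overlap. In telogen controls Kitl led with 312 ± 51.0 at P20 and 382 ± 114 at P60, Edn3 was at 45.9 and 51.5, and Nrg1 was last in all 8 groups.

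The balance of agouti and its antagonist was read as the ratio of Asip to Corin per kb within a library. At P24 it was 2.89, 4.21 and 2.90 in controls and 0.755, 0.691 and 0.582 in dM1/2, with no overlap. In P28 controls it was 0.229, 0.00761 and 0.0291, and it was 0.0641, 0.271 and 0.153 in P28 dM1/2, overlapping the controls. Of 12 such ratios tested, among 3 gene pairs and 4 ages, none could pass, as the smallest p that an exact permutation test of 3 against 3 libraries allows is 0.1. The ratio of Asip to Corin at P24 reached it (two-sided, 0.3 after Benjamini-Hochberg adjustment). So did the ratios of Corin to Kitl at P24 and P28 and of Edn3 to Edn1 at P20.

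**Figure D3:**
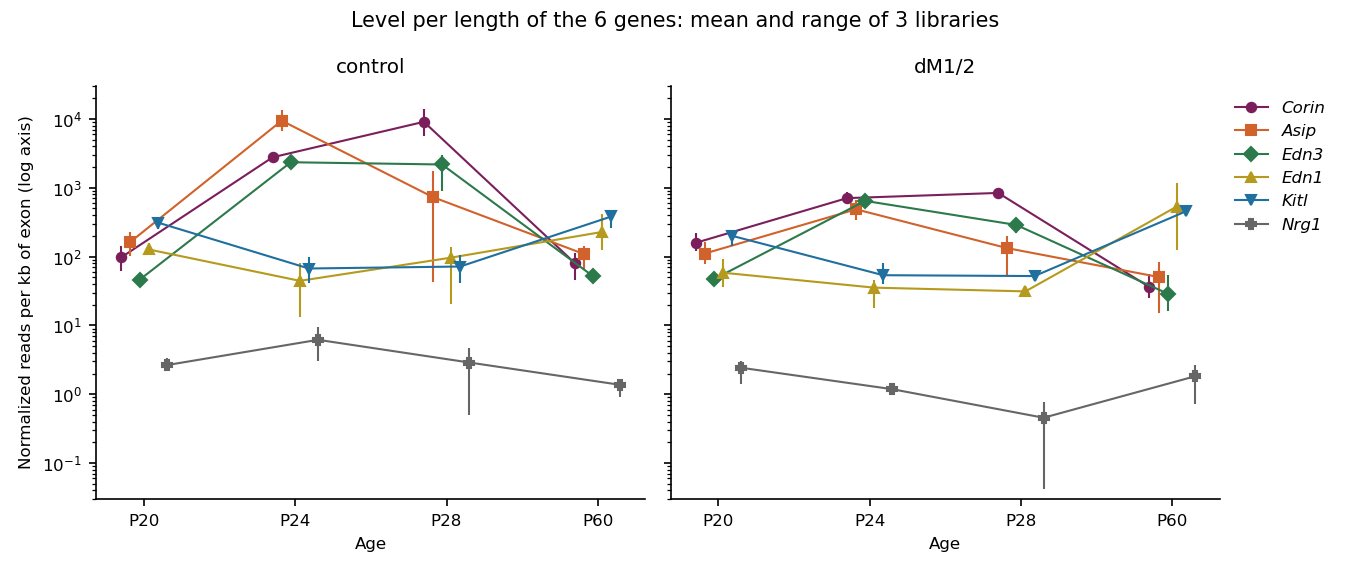
Normalized reads per kb of exon (log axis) of the 6 genes against age in control (left) and dM1/2 (right) DP cells, as means joined by lines with the range of 3 libraries as bars. Asip leads in P24 controls, Corin in P28 controls and in both anagen groups of dM1/2, and Kitl in P60 controls. Edn1 leads in the mean of P60 dM1/2 through replicate 1 (1176 per kb), while in replicates 2 and 3 it was below Kitl.

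Within each gene, the 8 groups could be ordered by mean level. For Corin the order was P28 control, P24 control, P28 dM1/2, P24 dM1/2, P20 dM1/2, P20 control, P60 control and P60 dM1/2, with ranges that overlapped between neighbours except for the first, the second and the fourth step. For Edn3 the order was P24 control, P28 control, P24 dM1/2, P28 dM1/2, P60 control, P20 dM1/2, P20 control and P60 dM1/2, and the second to the fifth step separated the neighbours. For Asip, P24 control was apart from P28 control and P24 dM1/2 from P20 control, and no other neighbours were apart. For Kitl the P60 and P20 groups came before the 4 anagen groups, with P20 control apart from P20 dM1/2 and the latter apart from P28 control. For Edn1 all neighbours overlapped, and for Nrg1 only P24 dM1/2 and P28 dM1/2, the lowest of the 8, were apart.

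The genes around these signals were taken as 5 lists, in which every gene was found in the files. The counts below stand against 11.8% of all genes tested that were lower at P24 and 15.6% at P28, and 26.6% and 35.5% that were called in either direction. In the melanocortin list (Atrn and Mgrn1, needed for agouti signaling, the receptor Mc1r, the hormone precursor Pomc and its processing enzymes Pcsk1 and Pcsk2), 0 of the 5 genes tested beside Asip were higher and 1 lower at P24, and 1 was higher and 1 lower at P28. Pcsk2 was lower at P24 (386 ± 71.6 normalized reads in controls and 174 ± 31.8 in dM1/2, log2 fold change -1.14, adjusted p = 0.00626) and higher at P28 (26.6 ± 15.6 and 173 ± 65.2, log2 fold change 2.75, adjusted p = 0.00724, limma). Mgrn1 was lower at P28 (log2 fold change -0.44, adjusted p = 0.0321, limma), but in only 8 of 14 alternatives, and the call was lost without P28 control 1, P28 control 3 or any P28 dM1/2 library (adjusted p from 0.0544 to 0.0968). The median log2 fold change of the list, Asip included, was -0.38 at P24 and -0.34 at P28, compared with -0.01 and 0.00 over all genes tested.

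Beside Corin, the list of natriuretic peptides, their receptors and proprotein convertases had 2 of 5 tested genes lower and 0 higher at both anagen ages. Furin, a proprotein convertase, had 6878 ± 489 normalized reads in P24 controls and 4124 ± 728 in dM1/2 (log2 fold change -0.75, adjusted p = 0.0123), a call that was lost without P24 control 2 (-0.73, adjusted p = 0.0502, limma). At P28 it had 8267 ± 2386 and 3036 ± 276 (log2 fold change -1.41, adjusted p = 0.00385, limma). Npr2, the receptor of C-type natriuretic peptide, had log2 fold changes of -0.65 and -0.53 (adjusted p = 0.00786 and 0.0149, limma), the latter lost without P28 control 1 or P28 dM1/2 3 (adjusted p = 0.0539 and 0.0509). Pcsk6, another proprotein convertase, was the only gene of the 5 lists called at P20, at 1962 ± 941 normalized reads in controls against 246 ± 80.4 in dM1/2 (log2 fold change -2.94, adjusted p = 0.0163, limma), and its call was lost without P20 dM1/2 1 or P20 dM1/2 3 (adjusted p = 0.0569 and 0.086). The substrate of Corin in the heart, Nppa, was at most 6.82 normalized reads in any library and was not tested. The list, Corin included, had medians of -0.60 and -0.47.

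Of the 5 tested genes of the endothelin list that are not among the 6, 1 was lower at P24, 2 were lower at P28 and 0 were higher. Ece2 was lower at P24 (log2 fold change -0.92, adjusted p = 0.00209) and Ece1 at P28 (-0.71, adjusted p = 0.00369, limma), both endothelin-converting enzymes. Ednrb, the receptor, was itself expressed in these sorted cells and was lower at P28 (log2 fold change -0.92, adjusted p = 0.0472, limma), in 8 of 14 alternatives, and was lost without P28 control 1 or any P28 dM1/2 library (adjusted p from 0.0685 to 0.141). In the Kit list, Kit itself had log2 fold changes of -0.51 and 0.70 that did not pass (adjusted p = 0.189 and 0.155), and Adam17, a protease known to shed Kit ligand, was lower at P28 (-0.45, adjusted p = 0.017, limma), in 10 of 14 alternatives, but not without P28 control 1, P28 dM1/2 2 or P28 dM1/2 3 (adjusted p = 0.0831, 0.0668 and 0.0535). The medians of the endothelin list, Edn1 and Edn3 included, were -0.29 and -0.86. In the Kit list, which has 3 genes with Kitl, the medians of -0.32 and -0.37 were the values of Kitl itself.

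In the neuregulin list, 1 of the 7 tested genes beside Nrg1 was higher and 2 were lower at each anagen age. Nrg2, a related ligand, had 3052 ± 112 normalized reads in P24 controls and 826 ± 84.9 in dM1/2, and 8621 ± 4202 and 417 ± 51.9 at P28. Its log2 fold changes were -1.89 and -4.26 (adjusted p = 0.000378 and 0.0004, limma), and all 14 alternatives at each age called it. Bace1, a protease known to cleave neuregulin, had log2 fold changes of -0.39 and -0.45 (adjusted p = 0.0393 and 0.045, limma) that were called in only 5 and 4 of 14 alternatives. Bace1 was lost at P24 without any one of the 6 libraries (adjusted p from 0.0758 to 0.118) and at P28 without any one except P28 control 2 (adjusted p from 0.0766 to 0.132). Erbb3, a receptor of neuregulins, was higher at a low level, with log2 fold changes of 1.59 at P24 (adjusted p = 0.0168, lost without P24 control 2, P24 dM1/2 2 or P24 dM1/2 3, adjusted p from 0.0603 to 0.063) and 2.02 at P28 (limma adjusted p = 0.00501). The list, Nrg1 included, had medians of -0.22 and -0.53. None of the genes in the 5 lists passed at P60.

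**Figure D4:**
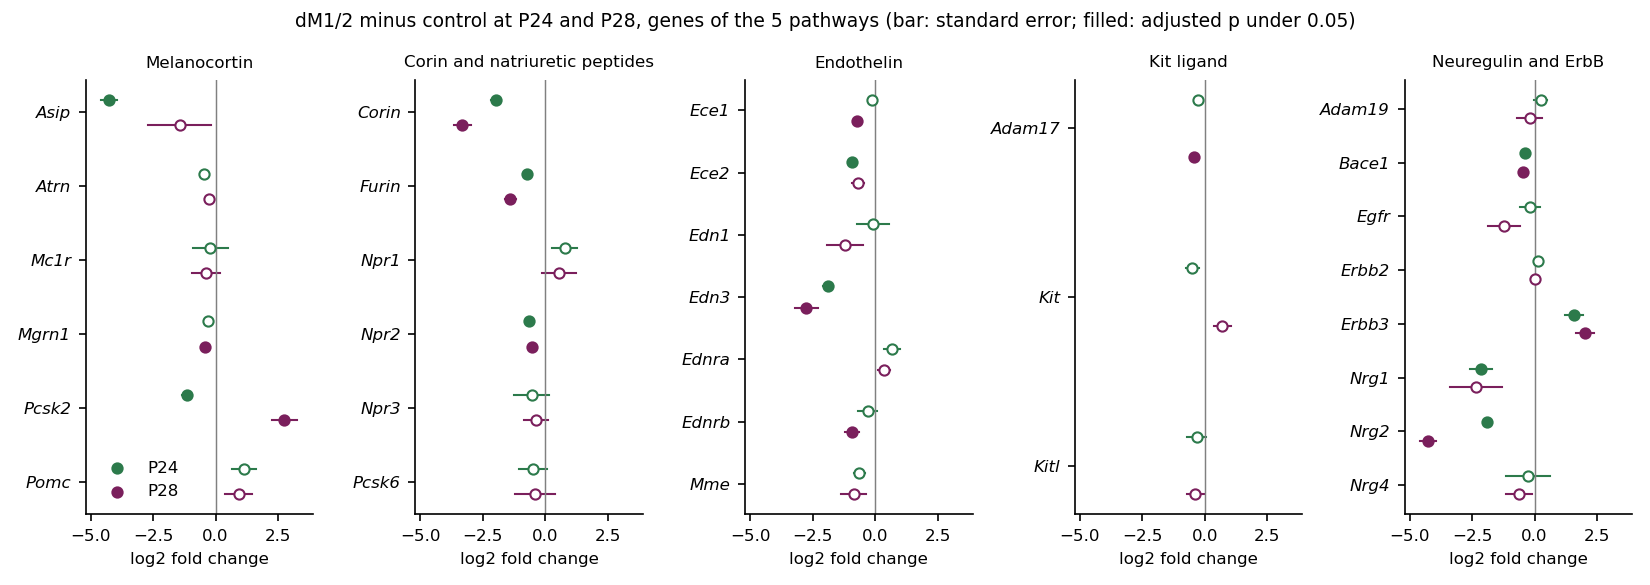
Log2 fold change between dM1/2 and control DP cells of the genes of the 5 pathway lists at P24 and P28, P24 in green and P28 in purple, with standard errors as bars and filled symbols for an adjusted p under 0.05 in limma. Asip at P24 (-4.26) and Nrg2 at P28 (-4.26) lie farthest to the left, and Pcsk2 at P28 (2.75) farthest to the right.

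Of the 14 markers of melanocytes, the cells that receive these signals, 6 were above 0 in every library and 8 were at 0 in at least 1. Among these 6, Pmel fell to 2.87 normalized reads in P20 control 3, under the limit of detection there. The transcription factor Mitf was the highest, at between 181 and 2658 normalized reads, followed by Rab38 at between 20.8 and 288 and Tyr at between 9.47 and 123. Of the pigment enzymes and factors at lower levels, Tyrp1 was at 0 in 16 of 24 libraries and reached 29.6 normalized reads, Dct was at 0 in 9 and reached 72.1, and Sox10 reached 7.57. The summed level of the 14 melanocyte markers was between 426 and 580 in P24 controls and between 313 and 460 in dM1/2, and between 589 and 1064 in P28 controls and between 497 and 568 in dM1/2, with no overlap at P28. Among the genes tested, 1 of 6 was lower at P24, and 1 was higher and 1 lower at P28. The 8 Schwann cell markers summed to between 879 and 1393 in P24 controls and between 580 and 770 in dM1/2, went the other way at P20 (between 544 and 617 against between 646 and 927) and overlapped at P28 and P60. The part of these cells in the values of Edn3, Kitl and the receptors was not tested.

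Across the 24 libraries, Corin and Edn3 had a Pearson correlation of 0.951 on the log2 scale, while Kitl ran opposite to both (-0.851 and -0.847) and Asip followed Edn3 at 0.761 and Corin at 0.632. These correlations describe libraries that share age, depth and sex, and between deviations from the group means they were 0.503, -0.518, -0.304, 0.573 and 0.394. Likeness was compared over the 10474 genes whose mean reached 100 normalized reads, with predicted gene models left out. Those most like Corin were Steap2, Creg2 and Nrg2 (each 0.970), and those most like Edn3 were Scube3, Rspo2 and Scube1 (each 0.978). Between deviations from the group means, the values were 0.241, 0.876 and 0.724 for Corin and 0.689, 0.343 and 0.797 for Edn3. Asip was most like Tpm1 (0.901), Rhbdf2 (0.894) and Phc2 (0.894), and Kitl most like Ltbp4 (0.968), Phldb1 (0.967) and Mfhas1 (0.959). Edn1 was most like Tmcc3 (0.956), Efhd1 (0.945) and Plac8 (0.943), and Nrg1 most like Zfp703 (0.841), Fam53c (0.802) and Chst10 (0.798).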

How the data were processed

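DP cells of 24 mice were sequenced as 50-base single reads after ribosomal RNA depletion (NEBNext Ultra Directional). Per the submitters' notes, the authors used Trimmomatic, TopHat2 (version 2), HTSeq and DESeq2 with mm10 and GRCm38.p4. The deposited values are a signal, counts per gene over a DESeq2 size factor, here termed normalized reads. Whole reads were recovered for 100% of values (tolerance 0.001). Columns of the authors' own fold changes and p-values were not used.

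Libraries were grouped by the labelled age and genotype, and held between 8171944 and 49331751 reads on genes. Genes whose mean in the fitted libraries reached 10 normalized reads were tested on log2(normalized reads + 1) with limma 3.58.1 (trend, two-sided, Benjamini-Hochberg, threshold 0.05) in R 4.3.3, and the script was tested on simulated data. Fold changes on this scale understate those of low genes. Alternatives were a pseudocount of 10, no filter, log2 CPM with TMM (prior count 2), edgeR 4.0.16 and DESeq2 1.42.0 on the recovered counts, the replicate number as a block, a single fit over 24 libraries and each library left out. Replicates are single mice, and no pair of libraries was a duplicate (smallest chi-square per gene 11.03). Replicate numbers did not mark a shared litter or day in the labels. Libraries of the same number correlated above 0.1 in all 3 pairs only from P28 to P60 in controls (0.128, 0.119 and 0.165). Such low values do not establish a pairing, and the main fits treated the libraries as unpaired. The 6 genes, the pathway and marker lists and the tests were chosen with earlier results of these data known. Named genes were the 6, genes of the 5 pathway lists, and the 3 genes most correlated with each of the 6. Exon lengths came from GENCODE M21, which matched 25431 of 25755 genes, and promoters from RefSeq (GRCm38.p6).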

Additional observations from a re-analysis of the deposited data

Results flagged for a closer look

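The effect of the genotype differed between anagen and telogen for 3 of the 6 genes, by the test of the difference itself over 24 libraries with limma. It was more negative in anagen by -2.44 for Corin (log2 scale, adjusted p = 0.000112), by -1.80 for Edn3 (adjusted p = 0.00183) and by -2.30 for Nrg1 (adjusted p = 0.0208). All 31 alternatives called each of these differences. Of all 14243 genes tested for this difference, 30.2% passed in either direction and 14.1% were lower. In telogen, Nrg1 was near the limit of detection. Depth and the sex of the mice changed together with phase and cannot be told apart from it.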

How the results depend on the processing

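Of 818 values under alternatives that kept all libraries, 768 kept their direction and side of the threshold, 21 were no longer past it, 25 were newly past it and 4 changed direction. The last were the change of Kitl from P24 to P28 in dM1/2 with edgeR (-0.0426 with TMM and -0.0406 with DESeq2 size factors) and DESeq2 (-0.0447), against 0.0314, and the difference between the P28 and P24 effects of Nrg1 with a pseudocount of 10 (0.3633 against -0.19). Of 760 values with a library left out, 674 kept both, 45 were lost, 14 were gained and 27 changed direction. The number of the 6 genes called for genotype at P20 went from 0 to 2 with DESeq2 (Edn1 and Kitl) and to 2 with the replicate block (Corin and Kitl), and at P28 from 2 to 4 with DESeq2, which added Edn1 and Nrg1, while the replicate block and the single fit added Nrg1. From P24 to P28 it went from 0 to 2 in controls with DESeq2 and with the single fit (Corin and Asip). In dM1/2 it went from 1 to 2 with a pseudocount of 10, DESeq2 or the replicate block, which added Asip, and to 0 with the single fit. DESeq2 called 1 gene, Corin, for the difference between the P28 and P24 effects, against 0 with limma, where 1680 genes had an unadjusted p under 0.05. The cause of these changes was not tested. In the main fit, 0.433% of all genes passed at P20 and 35.5% at P28. From P24 to P28, 1.46% passed in controls and 2.67% in dM1/2. Shares of all genes under each alternative are not given beside these counts, so the counts are no result about the 6 genes alone. At P20 every library correlated best with its own number (0.231, 0.082 and 0.116), a hint from the data and not the design. The block changed no call from P28 to P60 in controls.

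With a library left out, the number called for genotype ranged from 0 to 2 at P20, from 4 to 4 at P24, from 2 to 4 at P28 and from 0 to 0 at P60. Between ages it ranged in controls from 4 to 6, from 0 to 0, from 2 to 5 and from 0 to 0 (P20 to P24, P24 to P28, P28 to P60, P20 to P60), and in dM1/2 from 4 to 4, from 0 to 2, from 4 to 4 and from 0 to 4. It ranged from 0 to 0 for the difference within anagen and from 3 to 4 for that between phases. The share of all genes called with each library left out is not given here, so these ranges are no result about the 6 genes alone. The changes of direction were in log2 fold changes that did not pass: at P20 Edn3 (from -0.0065 to 0.0638) and Nrg1 (from -0.35 to 0.16), at P24 Edn1 (from -0.77 to 0.52) and Kitl (from -0.66 to 0.003), and at P60 Edn1 (from -0.0295 to 1.59) and Nrg1 (from -0.10 to 0.78). From P24 to P28 they were Edn3 (from -0.61 to 0.27) and Kitl (from -0.23 to 0.43) in controls and Edn1 (from -0.50 to 0.15) and Kitl (from -0.14 to 0.37) in dM1/2, and from P20 to P60 Corin in controls (from -0.60 to 0.0393) and Nrg1 in dM1/2 (from -0.86 to 0.0208). For the difference between the P28 and P24 effects they were Kitl (from -0.39 to 0.28) and Nrg1 (from -1.13 to 0.63). Telogen libraries had at most 13369732 reads, so that Nrg1 was near the limit of detection there. In anagen, Nrg1 was under that limit in P28 dM1/2 2, with 1 read.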
